A study of Mus musculus with 14 samples.

Results

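The 8 genes of 4 pairs, each a parent gene on the X chromosome and its autosomal retrogene, were followed in testis RNA of wild-type and Adad2 mutant mice: Pgk1 and Pgk2, Pdha1 and Pdha2, Cetn2 and Cetn1, and Utp14a and Utp14b. They were chosen as known pairs in which the retrogene takes over in spermatocytes, and all 8 were found among the 53239 gene symbols of the 14 quantification tables. A gene is the sum of its annotated transcripts. Total testis RNA (input) and RNA pulled down with tagged ribosomes (IP) were sequenced from 7 C57BL/6 mice aged 21 days post partum (dpp). The 3 wild-type mice were Adad2+/+ (animals 121, 140 and 17) and the 4 mutants were Adad2M/M (animals 12, 69, 93 and 94). All 7 also carried Stra8-iCre and Rpl22-HA, heterozygous for both, so the controls differ from ordinary mice in the same way. Stra8-iCre switches on the HA tag of a large-subunit ribosomal protein in differentiating spermatogonia and their descendants, so the IP samples germ cells from that stage on, whereas input holds somatic cells too. Each library is 1 animal and 1 fraction. ADAD2 is a germ cell RNA-binding protein, and the study asked how its loss alters transcript abundance and ribosome association.

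A retrogene arises when a spliced mRNA is reverse transcribed and inserted elsewhere in the genome, so its coding part lacks the introns of its parent. In spermatocytes the X and Y chromosomes are silenced (meiotic sex chromosome inactivation), and autosomal retrogenes of X-linked housekeeping genes are known to supply the product while the parent is silent. Such retrogenes are often transcribed only in male germ cells, and some of their mRNAs are stored untranslated in spermatocytes until spermatid stages.

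The pairs cover 4 basic functions. Pgk1 (ENSMUSG00000062070.12, chrX:106187100-106203699, plus strand) and Pgk2 (ENSMUSG00000031233.6, chr17:40207015-40208640, minus strand) encode phosphoglycerate kinase, an ATP-yielding enzyme of glycolysis. Pdha1 (ENSMUSG00000031299.10, chrX:160122209-160138413, minus strand) and Pdha2 (ENSMUSG00000047674.2, chr3:141210004-141212355, minus strand) encode the alpha subunit of the first enzyme of the pyruvate dehydrogenase complex, which feeds pyruvate into the mitochondrial citric acid cycle. Cetn2 (ENSMUSG00000031347.12, chrX:72913532-72918411, minus strand) and Cetn1 (ENSMUSG00000050996.7, chr18:9615524-9619478, minus strand) encode centrins, calcium-binding proteins of centrioles and the base of cilia. Utp14a (ENSMUSG00000063785.12, chrX:48256862-48282453, plus strand) and Utp14b (ENSMUSG00000079470.8, chr1:78658038-78671512, plus strand) encode nucleolar proteins needed to process small-subunit ribosomal RNA. All coordinates are GRCm38 from the GENCODE M21 annotation. Utp14b lies inside Acsl3, a gene of fatty acid activation on the same strand, and shares 244 of its 7679 exon bases (3.18%) with Acsl3 exons.

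The gene structures carry the mark of retrotransposition. The parents' main transcripts have 11 (Pgk1), 11 (Pdha1), 5 (Cetn2) and 15 (Utp14a) exons. Those of the retrogenes have 1 (Pgk2), 1 (Pdha2), 2 (Cetn1) and 4 (Utp14b), with the whole coding sequence of each in 1 exon. Aligned coding sequences were identical at 79.3% of positions for Pgk1 and Pgk2, 75.6% for Pdha1 and Pdha2, 79.5% for Cetn2 and Cetn1 and 77.9% for Utp14a and Utp14b.

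The 90 coding bases from the start codon show how far apart the glycolytic pair is. Capitals mark the 23 positions at which the sequences differ.
Pgk1, coding bases 1 to 90: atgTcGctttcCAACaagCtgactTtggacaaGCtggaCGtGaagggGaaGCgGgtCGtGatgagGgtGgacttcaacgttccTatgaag
Pgk2, coding bases 1 to 90: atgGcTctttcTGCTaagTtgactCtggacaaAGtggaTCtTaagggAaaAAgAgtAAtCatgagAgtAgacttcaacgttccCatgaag
The pyruvate dehydrogenase pair differs most, and the stretch below, the first 90 aligned bases without a gap (coding bases 23 to 112 of Pdha1 and 26 to 115 of Pdha2), holds 38 differences, again in capitals.
Pdha1: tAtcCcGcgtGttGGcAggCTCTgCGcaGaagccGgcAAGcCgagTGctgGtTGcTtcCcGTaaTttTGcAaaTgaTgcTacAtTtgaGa
Pdha2: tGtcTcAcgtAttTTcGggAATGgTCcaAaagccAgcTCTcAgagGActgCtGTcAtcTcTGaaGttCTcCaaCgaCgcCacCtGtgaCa
These differences matter for the measurements, because reads of parent and retrogene must be told apart. The longest identical run within a pair was 22 bases for Pgk1 and Pgk2, 20 for Pdha1 and Pdha2, 29 for Cetn2 and Cetn1 and 30 for Utp14a and Utp14b. No stretch of 100 bases, the read length after trimming, was shared within any of the 4 pairs. Pgk1 was the exception in another respect: 1157 of its 1726 windows of 100 bases (67.0%) also occur in the processed pseudogenes Pgk1-rs7 or Gm5537. Reads from those windows could not be placed by sequence alone, and the consequences are given below. For Utp14b, 43 of 3586 windows (1.20%) also occur in Acsl3, and the other 6 genes share no window with another annotated gene.

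A retrogene also leaves its parent's promoter behind. RefSeq windows of 250 bases upstream of the start were used for 7 of the 8 genes (GRCm38.p6). Cetn1 was left out of this comparison, so its promoter is not set against that of Cetn2. The number of CG dinucleotides, abundant in promoters of housekeeping genes, was 17 for Pgk1 against 3 for Pgk2 and 15 for Pdha1 against 4 for Pdha2. Cetn2 held 16, and Utp14a held 17 against 37 for Utp14b, whose window lies inside Acsl3. The median over 32851 promoters was 6, and 2.20% of them held at least as many as Utp14b. The pyruvate dehydrogenase pair shows the contrast, with CG in capitals.
Pdha1, chrX:160138431-160138680, minus strand: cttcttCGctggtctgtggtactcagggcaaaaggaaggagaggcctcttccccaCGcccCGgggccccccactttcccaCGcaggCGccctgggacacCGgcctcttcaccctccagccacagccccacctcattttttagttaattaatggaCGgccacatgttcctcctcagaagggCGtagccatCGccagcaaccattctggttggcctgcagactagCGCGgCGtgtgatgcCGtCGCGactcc
Pdha2, chr3:141212356-141212605, minus strand: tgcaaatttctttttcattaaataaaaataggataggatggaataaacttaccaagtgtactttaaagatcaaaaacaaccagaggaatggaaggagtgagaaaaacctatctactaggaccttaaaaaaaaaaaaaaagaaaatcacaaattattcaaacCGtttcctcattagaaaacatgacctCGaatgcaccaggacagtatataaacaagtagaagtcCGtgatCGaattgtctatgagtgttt
The Pdha2 window was 31.6% G or C against 61.6% for Pdha1, and of the 7 windows only that of Pdha2 held the letters TATAAA on either strand, which 12.4% of all promoters did.

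Input libraries held 22987974 to 30330450 expected counts and IP libraries 25037235 to 30871330. Gene symbols above 0 ranged from 25319 to 27791 in wild-type input and from 19655 to 21880 in wild-type IP. In mutant input they numbered 16024 (animal 12), 15438 (69), 21334 (93) and 27002 (94), and in mutant IP 12744 to 15024, so every mutant library but the input of animal 94 held fewer genes above 0 than the wild-type libraries of its fraction. Adad2 itself lay at 21.7 to 26.7 CPM (normalised counts, scaled to library size by TMM) in wild-type and 4.86 to 10.3 CPM in mutant input. In IP it lay at 107 to 119 CPM in wild type and 6.80 to 12.5 CPM in mutants, and fell by 3.44 on the log2 scale (SE 0.24, edgeR adjusted p = 0.0140). The fractions differed in their cell markers: 6 of 6 spermatogonial and 6 of 6 early meiotic markers were called higher in wild-type IP than in input, and 7 of 8 Sertoli and 5 of 6 Leydig markers were called lower. Of 8 late pachytene markers 4 were called higher and 2 lower, and of 10 round spermatid markers 1 was called higher and 3 lower.

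In wild-type input every retrogene stood above its parent, by the most for Cetn1 and the least for Utp14b. TPM, which corrects for transcript length, was used for levels between genes. In wild-type input (animals 121, 140 and 17) Cetn1 lay at 318, 237 and 240 TPM and Cetn2 at 6.07, 7.74 and 6.91 TPM, so the retrogene exceeded its parent 52.3-, 30.6- and 34.7-fold. Pdha2 lay at 68.0, 63.4 and 62.8 TPM against 3.14, 4.12 and 3.91 TPM for Pdha1, a ratio of 21.7, 15.4 and 16.05. Pgk2 lay at 79.3, 64.1 and 79.8 TPM against 9.42, 8.97 and 8.34 TPM for Pgk1, a ratio of 8.42, 7.14 and 9.56. Utp14b was the retrogene closest to its parent, at 10.6, 8.05 and 7.78 TPM against 3.07, 2.97 and 3.83 TPM for Utp14a, a ratio of 3.47, 2.71 and 2.03. In none of these 3 libraries did a parent reach its retrogene. By their means, the order in wild-type input was Cetn1 (265 ± 45.7 TPM, SD, n = 3), Pgk2 (74.4 ± 8.92), Pdha2 (64.7 ± 2.87), Pgk1 (8.91 ± 0.542), Utp14b (8.82 ± 1.58), Cetn2 (6.91 ± 0.835), Pdha1 (3.72 ± 0.516) and Utp14a (3.29 ± 0.470). Neighbours whose ranges overlapped were Pgk2 and Pdha2, Pgk1 and Utp14b, and Pdha1 and Utp14a.

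The order of the means changed in ribosome-bound RNA, where Pgk2 stood lower. In wild-type IP Cetn1 again led at 558, 578 and 575 TPM, followed by Pdha2 at 357, 299 and 379 TPM. Pgk2, in the second place of input, lay at 12.5, 7.26 and 15.0 TPM and so in the fifth, behind Utp14b (18.1 to 22.9 TPM) and Cetn2 (17.1 to 18.7 TPM). The remaining means were 8.18 ± 1.002 TPM (SD, n = 3) for Pdha1, 7.71 ± 0.504 for Utp14a and 6.44 ± 0.432 for Pgk1. Ranges overlapped between Utp14b and Cetn2, between Pgk2 and Pdha1 and between Pdha1 and Utp14a. Pgk2 therefore exceeded Pgk1 only 2.02-, 1.16- and 2.17-fold in IP, whereas Pdha2 exceeded Pdha1 50.7-, 34.5- and 42.9-fold. Cetn1 exceeded Cetn2 30.9- to 32.6-fold and Utp14b exceeded Utp14a 2.31- to 3.03-fold.

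**Figure D1:**
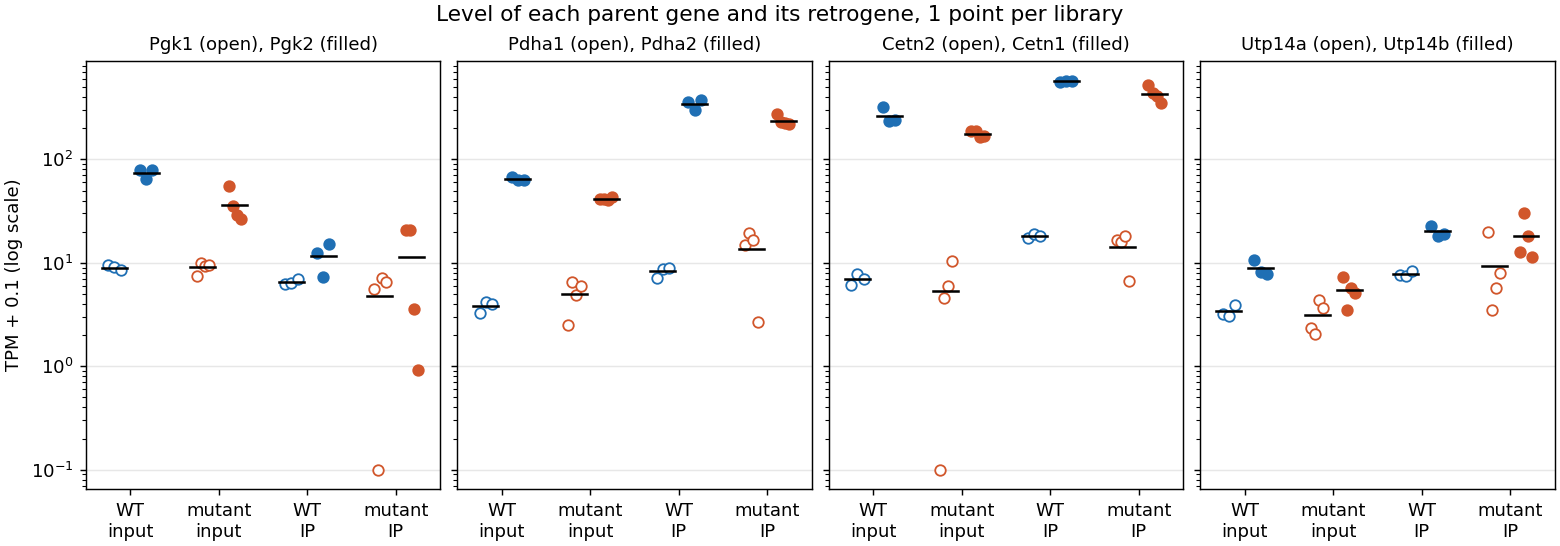
TPM plus 0.1 (log axis) of each parent gene (open circles) and its retrogene (filled circles) in every library, wild type in blue and mutants in orange, with the group mean as a bar. Retrogenes sit above their parents in all input libraries, and the circles at 0.1 are the libraries with 0 counts (Pgk1 in IP of mutant 69 and Cetn2 in input of mutant 12).

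In mutant input every retrogene again stood above its parent, and in mutant IP 3 libraries broke that order. In mutant input (animals 12, 69, 93 and 94) the ratio of Pgk2 to Pgk1 was 7.47, 3.59, 3.13 and 2.79, and that of Pdha2 to Pdha1 was 17.3, 6.39, 8.55 and 7.34. The ratio of Utp14b to Utp14a was 3.19, 1.74, 1.32 and 1.42. Cetn1 exceeded Cetn2 41.8-, 27.8- and 16.3-fold in animals 69, 93 and 94, and in animal 12 Cetn2 was listed at 0 while Cetn1 lay at 190 TPM. In mutant IP the order held in all 4 libraries for Pdha2 (18.3-, 12.1-, 13.4- and 85.3-fold) and Cetn1 (31.6-, 27.7-, 22.4- and 52.5-fold), and in 3 of 4 for Utp14b (0.638-, 8.86-, 3.25- and 1.45-fold). Pgk2 was above Pgk1 in animal 12 (3.74-fold) and in animal 69, where Pgk1 was listed at 0. It was below Pgk1 in animals 93 (0.497-fold) and 94 (0.130-fold). In mutant IP the spread between animals was wide for both parents and retrogenes: Utp14a ranged from 3.42 to 19.6 TPM, Pdha1 from 2.58 to 19.2, Utp14b from 11.3 to 30.3 and Pgk2 from 0.83 to 20.5, whereas Pdha2 ranged from 220 to 274 TPM. The parents rested on 0 to 716 expected counts in mutant libraries.

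Whether ribosome-bound germ cell RNA held a larger share of retrogene than total testis RNA was tested within animals, as the change of the log2 ratio of retrogene to parent (TPM + 0.1) from input to IP. In bulk RNA, fewer cells of a type and less RNA per cell cannot be told apart, and input and IP also differ in their mix of cell types. Pdha2 gained on Pdha1 in 7 of 7 animals, by 1.3 on average (SD 1.07, range 0.13 to 3.51). The exact sign-flip permutation test over the 7 animals gave p = 0.0156, the smallest it allows. The gain averaged 1.29 in wild type and 1.31 in mutants, and without mutant 94, where Pdha1 lay at 2.58 TPM in IP, it was 0.93 (p = 0.0313 by the exact test, the smallest that 6 animals allow). Over all 7 animals its size depended on the counting. It was 2.38 with protein-coding transcripts alone and 2.06 from counts without length scaling (exact permutation p = 0.0156 for each). The ratio of Cetn1 to Cetn2 changed by -0.84 on average (exact permutation p = 0.531) and that of Utp14b to Utp14a by 0.18 (exact permutation p = 0.750), less than the spread between animals. For Cetn1 the ratio was lower in IP in 5 of 7 animals and higher in 2, and the mean depended on single mutants. It was 0.01 without mutant 12, whose Cetn2 was listed at 0 in input. Without mutant 94, whose Cetn2 lay at 6.64 TPM in IP, it was -1.26 (exact permutation p = 0.0625). The ratio of Pgk2 to Pgk1 was lower in IP in 6 of 7 animals and higher in mutant 69, whose Pgk1 was listed at 0 in IP. The mean was -1.26 (exact permutation p = 0.375). It was -2.45 without that animal (exact permutation p = 0.0313, lower in 6 of 6). As the only animal with a rise was left out, the 6 of 6 was fixed by the choice. Leaving out any other animal gave -1.31 to -0.76 (exact permutation p = 0.406 to 0.688). With protein-coding transcripts alone the mean was -2.27 (exact permutation p = 0.0156). That setting left Pgk1 of mutant 69 at 0 in input as well as in IP. The change in that animal was then that of Pgk2 alone, so this p-value rests on an animal without a measure of the parent. Of 16 pair tests run with all animals and transcripts, those between genotypes included, 1 had a p under 0.05, and the p-values are not adjusted.

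**Figure D2:**
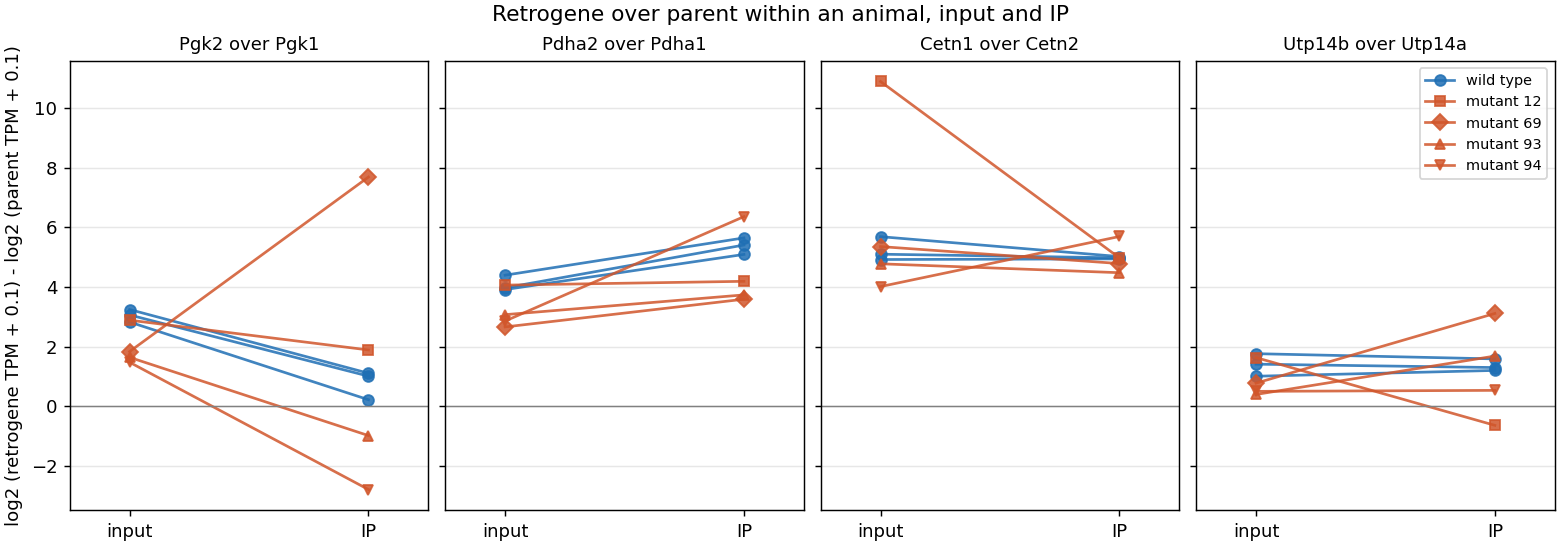
Log2 ratio of retrogene to parent (TPM + 0.1 for each) in input and in IP, with 1 line per animal. All 7 lines rise for Pdha2 over Pdha1, the 3 wild-type lines fall for Pgk2 over Pgk1, and the extreme points are libraries in which the parent was listed at 0.

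Gene by gene, IP was compared with input in wild type by edgeR's quasi-likelihood test with the animal as a block. Pdha2 lay at 157, 161 and 175 CPM in input and at 703, 607 and 662 CPM in IP. Every IP value lay above every input value, and the log2 difference was 2.01 (SE 0.10, edgeR adjusted p = 0.00634, higher in 3 of 3 animals). Cetn1, at 360, 297 and 331 CPM in input and 545, 583 and 497 CPM in IP, was higher by 0.73 (SE 0.10, edgeR adjusted p = 0.0177). Utp14b, at 45.2, 34.8 and 38.4 CPM in input and 73.6, 60.9 and 54.5 CPM in IP, was higher by 0.68 (SE 0.11, edgeR adjusted p = 0.0252). Pgk2 went the other way. It lay at 119, 106 and 145 CPM in input and at 16.003, 9.63 and 17.1 CPM in IP, and fell by 3.13 on the log2 scale (SE 0.17, edgeR adjusted p = 0.00634), so that IP held 0.0909 to 0.135 of the input level in the 3 animals. Thus 3 retrogenes were called higher, beside 13.0% of the 34864 features tested, and 1 was called lower, beside 6.37%. Calls were more common among autosomal protein-coding genes, of which 3657 of 14381 were called higher and 1093 lower.

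Some late germ cell markers were lower in wild-type IP alongside Pgk2. Of the 10 round spermatid markers 8 had values below 0 (median -2.03), and the 3 called lower, named here after their values were seen, were Gapdhs (-2.31), Akap3 (-1.74) and Hils1 (-3.32, edgeR adjusted p = 0.0349 or below for each). Acrv1 was called higher (1.54). The summed level of the 10 was 243 to 298 CPM in input and 219 to 225 CPM in IP, with up to 3 of them at 0 in an IP library. The late pachytene marker Adam5 was lower too, at 831 to 946 CPM in input and 185 to 276 CPM in IP (-1.93, edgeR adjusted p = 0.00676). The late pachytene list as a whole went the other way. Of its 8 markers 5 had values above 0 and 3 below (median 0.51), and 4 were called higher and 2, Adam5 among them, lower. Their summed level was 3120 to 3508 CPM in input and 6790 to 7534 CPM in IP. The part of cell stage in the Pgk2 value was not tested.

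None of the 4 parents passed that test in wild type. Utp14a (0.85, SE 0.22, edgeR adjusted p = 0.0733) and Cetn2 (0.85, SE 0.33, adjusted p = 0.170) had values above 0, that of Pdha1 was 0.05 (SE 0.30), and that of Pgk1 was -0.87 (SE 0.20, adjusted p = 0.0556). At an unadjusted p under 0.05, Utp14a and Pgk1 passed, and DESeq2 called Cetn2 and Utp14a higher (as 22.9% of features) and Pgk1 lower (31.2%). With animal 121 or animal 140 left out no feature at all passed, and without animal 17 Pdha2 and Pgk2 did. The values of the 4 called genes moved little in these fits, from 1.90 to 2.06 for Pdha2, -3.29 to -2.97 for Pgk2, 0.61 to 0.76 for Cetn1 and 0.63 to 0.70 for Utp14b. The scale matters here too. The median log2 difference of all features was -0.60 after TMM scaling and -0.07 on the log2(TPM + 0.1) scale, on which limma called 6 of the 8 genes higher, Pdha1 at 1.12 among them, and Pgk2 lower, but not Pgk1 (-0.46). Limma called 22.2% of features higher and 8.31% lower. The directions of Pdha2, Cetn1, Utp14b and Pgk2 were the same on both scales.

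In mutants Pdha2 was again called higher in IP. It lay at 135, 123, 124 and 135 CPM in input (animals 12, 69, 93 and 94) and at 479, 440, 446 and 431 CPM in IP, a log2 difference of 1.56 (SE 0.09, edgeR adjusted p = 0.00122, higher in 4 of 4 animals). It was the single member called, beside 6.35% of 22918 features higher and 3.56% lower, and stayed so without any 1 animal. Among autosomal protein-coding genes alone, 1272 of 12659 were called higher and 575 lower. With animals 12 and 69 left out together, a choice made after the data were seen, the value of Pdha2 was 1.54 (edgeR adjusted p = 0.0528). Cetn1 was higher in IP in 4 of 4 mutants but missed the threshold (0.31, SE 0.09, edgeR adjusted p = 0.109), and DESeq2 called it, beside 13.9% of features higher. Pgk2 was lower in IP in 4 of 4 mutants, at 117, 68.3, 58.2 and 54.2 CPM in input and 23.4, 25.4, 4.56 and 1.07 CPM in IP (-3.44, SE 0.76, edgeR adjusted p = 0.0511). DESeq2 and limma called Pgk2 lower, beside 6847 and 1196 of 22918 features. So did edgeR with at least 10 counts in every library, beside 1977 of 9872. The IP level of Pgk2 was highest in animals 12 and 69 and lowest in animals 93 and 94, which placed 2 mutants above and 2 below the wild-type range of 9.63 to 17.1 CPM. The remaining 5 genes had adjusted p-values of 0.464 or above in this edgeR fit.

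**Figure D3:**
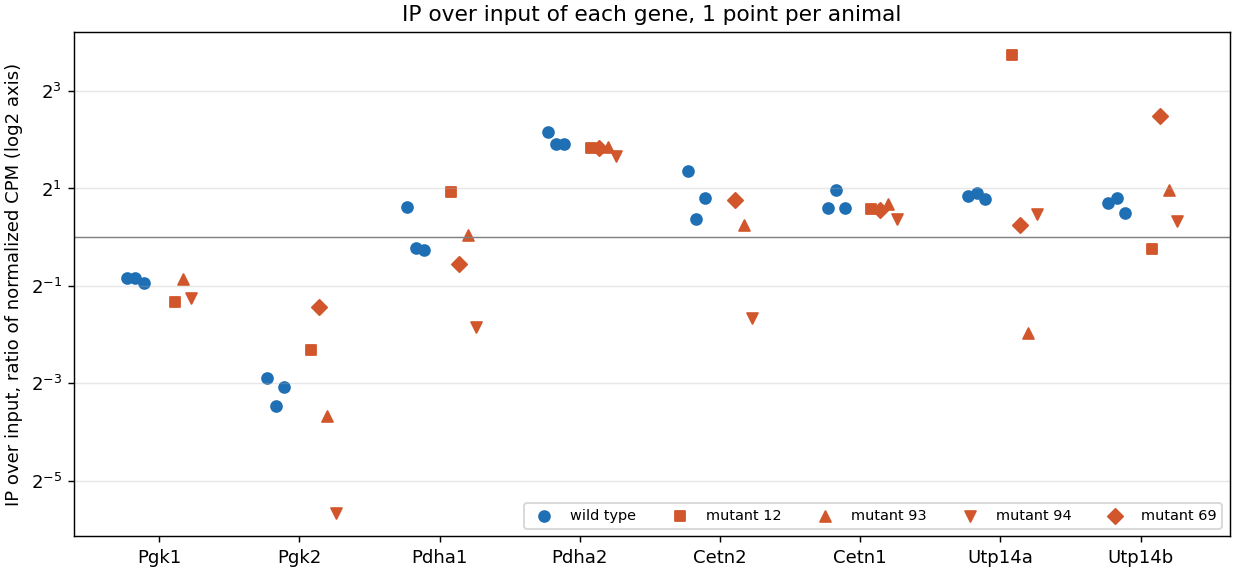
Ratio of IP to input in TMM-normalized CPM (log2 axis) for each gene, 1 point per animal, wild type as blue circles and mutants in orange with a shape per animal. Pgk1 of mutant 69 (0 in IP) and Cetn2 of mutant 12 (0 in input) have no point. Pgk2 lies below 1 in all 7 animals and Pdha2 above 3, and the mutants scatter most for Utp14a and Pgk2.

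The level of Pgk1 depends on how its copy is counted. Gm5537 (chr3:58102996-58104247, minus strand, GRCm38) is annotated as a processed pseudogene and shares most of these windows with Pgk1, and Pgk1-rs7 (chr12:10898986-10900240, minus strand), which does so too, was listed at 0 in all 14 libraries. Gm5537 was given 106, 148 and 246 expected counts in wild-type input (animals 121, 140 and 17) against 481, 506 and 482 for Pgk1. In wild-type IP it was given 334, 361 and 518 against 203, 203 and 241 for Pgk1, so the larger share moved from Pgk1 to its copy. In mutant input Gm5537 held 0, 10.9, 229 and 585 counts (animals 12, 69, 93 and 94), and in mutant IP 0, 339, 458 and 1162. In animal 69 all 339 counts of the pair in IP went to Gm5537 and none to Pgk1, and in animal 12 the reverse was seen. Which of both loci was transcribed was not tested. Counted together (an alternative chosen after the data were seen), Pgk1 and Gm5537 gave a log2 difference between IP and input of 0.23 in wild type (SE 0.14, edgeR adjusted p = 0.321), against -0.87 for Pgk1 alone. Set against the sum of both, Pgk2 stood 4.93 to 6.30 times as high in wild-type input and 0.313 to 0.577 times as high in wild-type IP. The log2 ratio then changed by -3.23 on average from input to IP, downward in 7 of 7 animals (exact permutation p = 0.0156). The lower share of Pgk2 in IP was therefore seen with either way of counting in wild type, while the direction of Pgk1 itself was not.

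**Figure D4:**
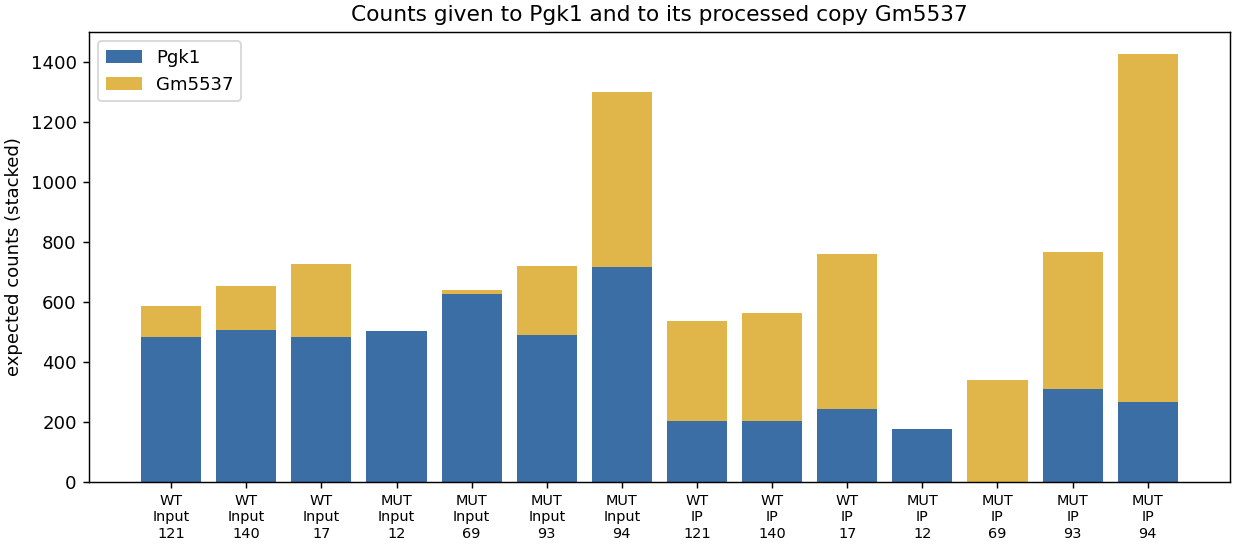
Expected counts given to Pgk1 (blue) and to Gm5537 (yellow), stacked, in each of the 14 libraries. The sum of both lies between 176 and 1429, and the split between them differs from animal to animal among the mutants.

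The genotype comparison asked whether the pairs changed with loss of ADAD2. In input, all 4 retrogenes had values below 0 (mutant over wild type): -0.80 for Pgk2 (SE 0.28, edgeR adjusted p = 0.521), -0.41 for Pdha2 (SE 0.09, adjusted p = 0.347), -0.33 for Cetn1 (SE 0.11, adjusted p = 0.441) and -0.51 for Utp14b (SE 0.30, unadjusted p = 0.135). The parents' values were 0.18 for Pgk1, 0.51 for Pdha1, -0.05 for Cetn2 and -0.01 for Utp14a. No member was called, beside 0.00820% of 36572 features. At an unadjusted p under 0.05, Pgk2, Pdha2 and Cetn1 passed as lower, DESeq2 called Pdha2 (-0.35, DESeq2 adjusted p = 0.00376, beside 2.16% of features lower), and limma called none. The median over all features was -0.18.

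Pdha2 had the smallest SE of the 8 genes in input. It lay at 157 to 175 CPM in wild-type input and at 123 to 135 CPM in mutant input, with no overlap. Pgk1 was the only member whose mutant input values lay above the wild-type range, at 18.2, 21.3, 19.3 and 22.5 CPM against 16.4, 17.3 and 17.6 CPM. Counted with Gm5537 they overlapped, at 502, 639, 718 and 1301 expected counts in mutants against 587, 654 and 728 in wild type. Groups without overlap were found for 9.56% of features with mutants lower and 3.30% with mutants higher. For Pgk2, 3 of 4 mutants (68.3, 58.2 and 54.2 CPM) lay below the wild-type range of 106 to 145 CPM, and animal 12 (117 CPM) lay within it. In TPM, all 4 retrogenes were lower in every mutant input than in any wild-type input, as 15.2% of features were: Pgk2 at 26.3 to 54.9 against 64.1 to 79.8 TPM, Pdha2 at 40.6 to 42.8 against 62.8 to 68.0, Cetn1 at 165 to 190 against 237 to 318 and Utp14b at 3.40 to 7.14 against 7.78 to 10.6. All 4 parents, Pgk1 included, overlapped on that scale. The median of all features on the log2(TPM + 0.1) scale was -0.57, against which the values of Pgk2 (-1.08), Utp14b (-0.76), Pdha2 (-0.64) and Cetn1 (-0.56) have to be read.

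Markers of late germ cells, in which these retrogenes are known to be active, were also lower in mutants by their summed level. In input, 8 of 8 late pachytene markers had values below 0 (median -0.53) and their summed level was 3120 to 3508 CPM in wild type and 2289 to 2777 CPM in mutants, with no marker at 0. For 10 of 10 round spermatid markers the value was below 0 (median -1.41), the summed level was 243 to 298 CPM in wild type and 132 to 170 CPM in mutants, and up to 4 of the 10 were at 0 in a mutant library. Spermatogonial markers had values above 0 in 4 of 6 (median 0.31), and their summed level was 86.5 to 105 CPM in wild type and 65.5, 108, 145 and 169 CPM in mutants 12, 69, 93 and 94. Early meiotic markers (4 of 6 above 0, median 0.06) lay near 0, and markers of Sertoli (7 of 8 above 0, 599 to 705 against 699 to 883 CPM), Leydig (6 of 6) and macrophage cells (5 of 5) had values above 0. None of these markers was called. The part of cell composition in the retrogene values was not tested.

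In IP the genotypes separated for Pdha2 and Cetn1 alone among the 8 genes. Pdha2 lay at 703, 607 and 662 CPM in wild type and at 479, 440, 446 and 431 CPM in mutants (-0.53, SE 0.08, edgeR adjusted p = 0.114). Cetn1 lay at 545, 583 and 497 CPM in wild type and at 458, 408, 403 and 340 CPM in mutants (-0.41, SE 0.12, edgeR adjusted p = 0.121). For both genes every mutant lay below every wild-type animal, in CPM as in TPM. Such a separation with mutants lower was seen for 14.9% of features in CPM and 12.7% in TPM, and with mutants higher, in CPM, for 1.82%. The other 6 members overlapped in CPM, with values of -0.42 (Pgk1, SE 1.53), -0.05 (Pgk2, SE 0.98), 0.24 (Pdha1, SE 0.52), -0.62 (Cetn2, SE 0.63), -0.04 (Utp14a, SE 0.72) and -0.17 (Utp14b, SE 0.36). No member was called, beside 0.00764% of 26186 features. At an unadjusted p under 0.05 Pdha2 and Cetn1 passed as lower, DESeq2 called Pdha2 (-0.43, DESeq2 adjusted p = 2.04e-06, beside 7.94% of features lower), edgeR without a filter on low counts called it too (adjusted p = 0.0258, beside 0.136%), and limma called none. Without animals 12 and 69 the Pgk2 value in IP was -2.33 (SE 0.81, edgeR adjusted p = 0.190, lower in 2 of 2 mutants). That omission was chosen after the data were seen. It took out the mutants with the highest Pgk2 level in IP, so the direction was fixed by the choice. Late pachytene markers lay below 0 in IP as well (8 of 8, median -0.77, 6790 to 7534 against 5096 to 5384 CPM summed), and spermatogonial markers above 0 (6 of 6, median 0.49, 495 to 645 CPM summed in wild type against 575, 889, 840 and 911 CPM in mutants 12, 69, 93 and 94). Round spermatid (5 of 7 tested below 0, median -0.79), Sertoli (6 of 8, -0.85) and Leydig markers (4 of 5 tested, -0.88) also lay mostly below 0. So did those of stroma (3 of 5, -0.43) and of vessel and blood (3 of 5, -0.95). Early meiotic (4 of 6 above 0, median 0.10) and macrophage markers (2 of 3 tested above 0, 0.12) did not. None of these markers was called, and their part in the member values was not tested.

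**Figure D5:**
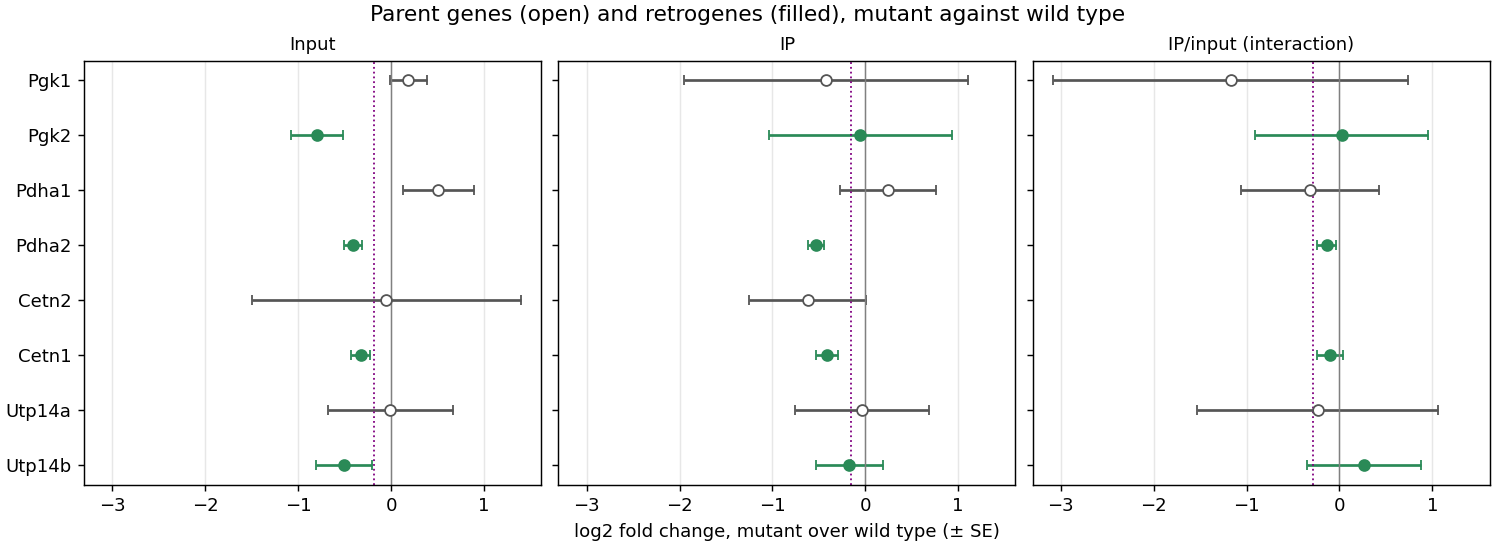
Log2 fold change of mutant over wild type with its SE (edgeR) in input, in IP and in IP over input, for parents (open circles) and retrogenes (filled circles). The dotted line is the median of all features tested, at -0.18, -0.15 and -0.29. The retrogenes lie left of 0 in input and in IP, no gene passed the test, and Cetn2 was not tested in the last panel because 1 input library was at 0.

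Ribosome association, the IP level relative to input, did not differ by genotype beyond error for any of the 7 members tested, nor was any of 16014 features called (0%). The differences were -0.14 for Pdha2 (SE 0.10, edgeR adjusted p = 0.901), -0.10 for Cetn1 (SE 0.14), 0.02 for Pgk2 (SE 0.93), 0.27 for Utp14b (SE 0.61), -0.23 for Utp14a (SE 1.29), -0.32 for Pdha1 (SE 0.75) and -1.17 for Pgk1 (SE 1.91). None passed at an unadjusted p under 0.05 either, and DESeq2 and limma called none. Only for Pdha2 and Cetn1 was the SE below 0.2, and for the other 5 it was 0.61 to 1.91. The ratio of IP to input for Pdha2 was 4.49, 3.78 and 3.78 in wild type and 3.55, 3.56, 3.59 and 3.19 in mutants. These did not overlap, as for 10.2% of features with mutants lower and 0.837% with mutants higher, but in TPM they did (4.72 to 6.04 against 5.14 to 6.63), and the sign of the difference turned to 0.10. For Pgk2 the ratio in mutants was 0.200, 0.372, 0.0785 and 0.0197, so animals 12 and 69 lay above and animals 93 and 94 below the wild-type values of 0.0909 to 0.135. With animals 12 and 69 left out together, the Pgk2 difference was -1.43 (SE 0.58, edgeR adjusted p = 0.359). Its direction was fixed by that choice, which was made after the data were seen and took out the mutants with the highest ratios.

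The ratio of retrogene to parent within a library, which is free of library scaling, showed no genotype difference past an exact permutation test either. The 35 splits of 7 animals allow a p of 0.0286 at the least. In input the mean log2 ratio of Pgk2 to Pgk1 was 3.04 ± 0.21 (SD, n = 3) in wild type and 1.96 ± 0.64 (n = 4) in mutants. That difference of -1.09 had an exact permutation p of 0.0857. The ratio of Pdha2 to Pdha1 was 4.09 ± 0.26 against 3.16 ± 0.62 (difference -0.93, exact permutation p = 0.114) and that of Utp14b to Utp14a was 1.39 ± 0.38 against 0.82 ± 0.56 (difference -0.57, exact permutation p = 0.171). The ratio of Cetn1 to Cetn2 was 5.23 ± 0.40 against 6.26 ± 3.14, a difference of 1.02 (exact permutation p = 0.914) that turned to -0.52 without mutant 12. The wild-type and mutant values overlapped for all 4 pairs. Animal 12 lay inside or above the wild-type range in each of them, and animal 69 did so for Cetn1 over Cetn2. Without animals 12 and 69 the IP ratio of Pgk2 to Pgk1 differed by -2.67 (exact permutation p = 0.1, the smallest that 3 against 2 animals allow). These animals were left out after the data were seen and had the highest IP ratios, so the direction was fixed by the choice. In IP with all animals the differences were 0.67, -0.91, 0.00 and -0.19 for the pairs of Pgk2, Pdha2, Cetn1 and Utp14b (exact permutation p = 0.286 or above). For the change from input to IP they were 1.76, 0.02, -1.02 and 0.38 (exact permutation p = 0.771 or above).

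A further 12 pairs of an X-linked parent and an autosomal retrogene, listed from general knowledge, give the setting. The mean TPM of the retrogene was above that of its parent in 9 of 12 pairs in wild-type input and wild-type IP, in 8 in mutant input and in 7 in mutant IP. Gk2, a glycerol kinase retrogene, had the highest level of the 12 in wild-type input, at 220 TPM. Prps1l1, of phosphoribosyl pyrophosphate synthesis, lay at 113 TPM against 6.92 for Prps1, Fam50b at 62.1 against 3.47 for Fam50a, and the ribosomal protein gene Rpl10l at 109 against 8.87 for Rpl10. In contrast Zrsr1, of splicing, lay at 1.96 TPM against 5.07 for Zrsr2. In wild type 5 of these 12 retrogenes were called higher in IP than in input, beside 13.0% of all features, and none lower, beside 6.37%: Rbmxl2, an RNA-binding protein, by 3.46, Fam50b by 1.77, Rpl10l by 1.5, Cstf2t, of mRNA 3' end formation, by 1.4 and Prps1l1 by 0.65 on the log2 scale. Among autosomal protein-coding genes alone, 3657 of 14381 were called higher and 1093 lower. Of the 12 parents, 2 were called higher, Fam50a (1.42) and Cstf2 (1.07), a share near that of all features.

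In mutants, 4 of 10 of these retrogenes tested were called higher in IP (Rbmxl2, Rpl10l, Fam50b and Cstf2t), beside 6.35% of features, and Gk2 was called lower (-0.67, edgeR adjusted p = 0.0102), beside 3.56%. Of autosomal protein-coding genes alone, 1272 of 12659 were called higher in mutant IP and 575 lower. Between genotypes in input, 11 of 12 of the retrogenes had values below 0 (median -0.48) and 8 of 12 parents had values above 0 (median 0.20), with none called. The median over X-linked protein-coding genes was 0.18 and that over autosomal ones -0.06. In IP, 10 of 11 retrogenes tested were below 0 (median -0.25) and 5 of 12 parents were above 0 (median -0.32), again with none called. For the 4 pairs above, the input median was -0.46 over the retrogenes and 0.09 over the parents.

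Among 8292 protein-coding genes with a mean log2 CPM of at least 3, the profile most like that of Pgk2 over the 14 libraries was that of Stk39, a kinase of ion transport (Pearson r = 0.97), followed by Tomm20, a receptor of mitochondrial protein import (0.96). For Pdha2 they were Kdm1a, a histone demethylase, and Hspa2, the heat shock protein of spermatocytes (0.99 each), and for Cetn1 they were Cfap52, a cilium protein, and Tcp1, a chaperonin subunit (0.97 each). Utp14b was most like Prps1l3 (0.93) and Ninl (0.92). The parents had less stable matches: Utp14a with Otud3 (0.90) and Ncoa2 (0.86), and Pdha1 with Cdk8 and Rin2 (0.77 each). Pgk1 with Arl5b and Tmem64 (0.99 or above) fell to 0.93 and 0.90 without the library listed at 0, and Cetn2 with Eif2ak4 and Zfp438 (0.98 and 0.97) fell to 0.75 and 0.63. These correlations describe 14 libraries that share animals, depth and the contrast of input with IP, and carry no test.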

How the data were processed

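RNA of 14 libraries (input and anti-HA IP of 3 wild-type and 4 Adad2 mutant testes) was sequenced by the authors. Stranded paired reads, obtained after ribosomal RNA depletion, were trimmed to 100 bases. They were quantified with RSEM 1.3.3 on GRCm38 transcripts plus testis genes and isoforms that the authors had added. The deposited tables hold expected counts and TPM per transcript. Transcripts were summed to gene symbols here, and expected counts were rounded for edgeR. The 48888 assembled transcripts have no gene symbol, and each was kept as a feature of its own. Shares of features therefore mix genes with unannotated transcripts. Windows shared with other genes were searched in annotated transcripts alone, so reads shared with assembled ones were not examined.

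Genotypes were compared within each fraction, and IP with input within each genotype, by edgeR 4.0.16 (quasi-likelihood test, TMM scaling, filterByExpr, Benjamini-Hochberg adjustment, threshold 0.05). The animal entered as a block wherever IP was set against input, because both libraries of a number come from 1 mouse. The correlation of their deviations from the group means was 0.07 to 0.16 in wild type and 0.02 to 0.05 in mutants. The SE of a log2 fold change was its size divided by the square root of F. Ratios of retrogene to parent were taken as log2(TPM + 0.1) and tested by exact permutation, two-sided. DESeq2 1.42.0, limma 3.58.1 on log2(TPM + 0.1), other filters, pseudocounts and left-out animals served as alternatives. EBSeq and the Welch t-test on TPM ratios of IP to input, both used by the study, were not run. The fitting steps were tested on simulated data.

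The members and lists were chosen with earlier results of these data known. Genes named were the 8 members, Adad2, Acsl3, context genes with a mean TPM of at least 1 and the 2 genes most correlated with each member. Gm5537 and Pgk1-rs7 were named after their values were seen. Sequences came from GENCODE M21 transcripts and RefSeq.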

Additional observations from a re-analysis of the deposited data

How the results depend on the processing

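Under the alternatives tried, 389 values of single genes and 239 pair ratios and counts kept their direction and side of the threshold, or stayed within 1.5 times. Of the single-gene values 48 reversed, 18 passed the threshold only under the alternative and 11 no longer passed it. Of the pair ratios 27 reversed, 3 passed only under the alternative and 1 no longer passed, and 55 counts moved beyond that bound. Expected counts limit the parents, which rest on 0 to 716 counts in mutant libraries. Features called moved as follows. DESeq2 called 1143 (genotype, input), 2504 (genotype, IP), 18846 (wild-type IP against input), 10039 (mutant IP against input) and 979 (genotype difference of IP over input), with 1, 1, 7 and 3 members in the first 4. Limma on log2(TPM + 0.1) called 0, 1838, 10635, 6042 and 1, with 7 and 3 members in the wild-type and mutant IP comparisons. Without a filter 30, 76 and 5 were called for genotype in input, IP and IP over input, with 1 member in IP. With at least 10 counts in every library 1 was called for genotype in IP, 11325 in wild-type and 3937 in mutant IP against input, with 2 members in the latter. Without the replicate block the IP comparisons gave 10270 (wild type), 3721 (mutants) and 388 (their difference), and mutant Cetn2 turned to -0.0419. Leaving out animals 12 and 69 together gave 0, 1, 12 (0 members) and 76 for input, IP, mutant IP against input and IP over input. Leaving out 1 animal gave 0 to 2 (input), 0 to 4 (IP), 0 to 3754 with 0 to 2 members (wild-type IP against input), 961 to 1585 (mutant) and 0 to 10 (IP over input). The cause of these shifts was not tested.

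Directions turned mostly for genes near 0. Between genotypes in IP, DESeq2, RLE size factors and the minimum of 10 counts gave 0.0563, 0.0564 and 0.0411 for Pgk2 and 0.0586, 0.0588 and 0.0551 for Utp14a, and in input 0.0337, 0.0337 and 0.0403 for Utp14a. That minimum also turned wild-type Pdha1 (IP against input) to -0.12. Limma turned the IP over input difference to 0.14 (Cetn1), 0.0828 (Pdha1), 0.10 (Pdha2) and 0.13 (Utp14a), and mutant Pdha1 (IP against input) to 1.20. Without a filter that of Pgk2 was -0.0574. Without animals 12 and 69 (chosen after the data were seen) the genotype values were -0.16 (Pdha1) and 0.12 (Pgk1) in IP, 0.55 (Cetn2) and 0.62 (Utp14a) in input and -1.43 (Pgk2) for IP over input, and mutant IP against input gave -0.92 (Cetn2) and -0.96 (Utp14a).

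For the pair ratios, the same omission gave 1.61 for Pdha2 over Pdha1 in IP against input (exact permutation p = 0.0625, the smallest 5 animals allow), 0.12 for Cetn1 over Cetn2, -2.67 and -1.18 for Pgk2 over Pgk1 between genotypes in IP and in IP over input, and 0.95 and -0.84 for Cetn1 over Cetn2 between genotypes in IP over input and in input. Counting Gm5537 with Pgk1 gave -3.23 for Pgk2 over Pgk1 in IP against input and -0.34 between genotypes in IP, and turned wild-type Pgk1 to 0.23. Protein-coding transcripts alone gave -2.27 for Pgk2 over Pgk1 in IP against input, 0.68 and -0.00638 between genotypes in input and in IP over input, and 0.43 and 0.89 for Utp14b over Utp14a in input and IP. That setting put Pgk1 at 0 in both fractions of mutant 69. A pseudocount of 1 gave -0.0273 for Cetn1 over Cetn2 in IP and -0.0401 for Pdha2 over Pdha1 in IP over input, and counts without length scaling gave 0.18 for Utp14b over Utp14a in IP.

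With 1 animal left out, genotype values in IP ranged from -0.54 to 0.34 (Pgk2), -0.68 to 0.28 (Utp14a) and -0.53 to 0.0121 (Utp14b), and in input from -0.48 to 0.36 (Cetn2) and -0.38 to 0.31 (Utp14a). For IP over input they ranged from -0.74 to 0.11 (Pdha1), -0.64 to 0.69 (Pgk2), -1.14 to 0.47 (Utp14a) and -0.28 to 0.66 (Utp14b). IP against input ranged from -0.40 to 1.79 (mutant Cetn2), -0.58 to 1.15 (mutant Utp14a) and -0.26 to 0.20 (wild-type Pdha1). Pair ratios in IP against input ranged from -1.26 to 0.00749 (Cetn1 over Cetn2), -2.45 to -0.76 (Pgk2 over Pgk1, p under 0.05 without animal 69 alone) and -0.17 to 0.59 (Utp14b over Utp14a). Between genotypes in IP they ranged from -0.23 to 0.17 (Cetn1 over Cetn2), -1.41 to 2.09 (Pgk2 over Pgk1) and -0.84 to 0.41 (Utp14b over Utp14a), in IP over input from -2.01 to 0.53 (Cetn1 over Cetn2), -0.72 to 0.41 (Pdha2 over Pdha1), -0.36 to 3.01 (Pgk2 over Pgk1) and -0.29 to 1.252 (Utp14b over Utp14a), and in input from -0.52 to 1.77 (Cetn1 over Cetn2).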

Other observations

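Pgk2, Pdha2 and Cetn1 each have a single annotated transcript, so their counts could not be split. The counts of Utp14b, Pdha1, Cetn2, Utp14a and Pgk1, which have several, were split between transcripts in at least some libraries. Utp14b, a gene of ribosomal RNA processing, has a short and a long annotated transcript, and the short one held 75.4% to 89.3% of its counts in wild-type input, 93.7% to 96.8% in wild-type IP and 100% in all 4 mutant IP libraries. Pdha1 had all its counts on the main coding transcript in wild-type input and 78.2% to 97.0% in wild-type IP, the remainder being given to short noncoding transcripts. Such short transcripts weigh more in TPM than in counts.

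Transcript assignment varied most in the mutants. In input of mutant 69 all 627.78 counts of Pgk1 were given to a transcript annotated for nonsense-mediated decay, which held none in wild type. In IP of mutant 93, the noncoding transcripts of Utp14a held 92.1% of its counts. These splits are estimates from reads that several transcripts share, and were not tested between groups.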
